A study of Mus musculus with 4 samples.

Results

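The insulin-like growth factor (IGF) genes were followed in dorsal skin of C3H mice: the ligands Igf1 and Igf2, the receptors Igf1r and Igf2r, and the binding proteins Igfbp2 to Igfbp7, 10 genes in all. A probe set, a group of short array probes that reports a transcript, was included when the platform annotation names 1 of these genes and no other. This gave 20 probe sets for 8 genes, out of 45037 probe sets and 17097 named genes. Igf2r was not analysed here because its probe set in that annotation also names Airn, and Igfbp7 was not analysed here because no probe set carries its name there. Igfbp5 was singled out by its brightness on these same arrays, so its values are a description without a test. The annotation used here names 1 probe set for Igfbp5, and agreement between Igfbp5 probe sets could therefore not be examined.

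The mice were males, 8 weeks old at the start, and their backs were shaved to bring resting hair follicles into growth. One group received the vehicle, Milli-Q water, and the other received 1% TCQA, a caffeoylquinic acid derivative, on the shaved skin every day for 30 days. Hair was plucked from the treated area before its skin was collected. Arrays Control 1 and Control 2 held total RNA of vehicle-treated skin, and arrays TCQA 1 and TCQA 2 held that of TCQA-treated skin. The methods state 5 mice per group, and it is not given whether an array held 1 mouse or a pool, so the spread behind each p-value is that between arrays and may be technical. Differences are given as log2 fold changes, TCQA minus control, from the log2 values that the authors deposited.

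IGF1 and IGF2 are secreted growth factors that signal through the tyrosine kinase receptor IGF1R, whereas IGF2R binds IGF2 and carries it to lysosomes. The binding proteins hold the ligands in blood and tissue fluid, lengthen their life and limit or direct their access to the receptor. In skin, IGF1 made by dermal cells, including the dermal papilla, acts on keratinocytes and supports hair follicle growth, and the binding proteins are made by fibroblasts and by follicle and epidermal cells.

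The arrays did not share 1 distribution of values, and Control 1 stood apart. On Control 1, 522 probe sets reached log2 8, against 23 to 31 on each of the other arrays, while the median was 2.30 on Control 1 and lay between 2.49 and 2.55 on the others. Of 8 keratinocyte markers, 7 were among the brightest 10% of probe sets on Control 1, but on Control 2 and TCQA 1 only 1 was, and on TCQA 2 only 2 were, so the markers of the labelled tissue were largely dim on 3 of the arrays. The summed linear signal of these markers was 3559 on Control 1 and 74.8 on Control 2, with 72.9 and 110.8 on the TCQA arrays. On TCQA 2 the brightest of them was Dsp, at log2 5.61 against 1.93 on Control 2 and 2.02 on TCQA 1. For 7 fibroblast markers the sums were 1046 and 72.6 in the control and 66.9 and 58.0 with TCQA, and 4 of them were among the brightest 10% on Control 1 against 2 on each other array. For 7 liver markers they were 1466 and 45.3 in the control and 43.8 and 262.6 with TCQA, and 6 of them were among the brightest 10% on Control 1, 2 on TCQA 2 and none on the others. For 7 skeletal muscle markers they were 13332 and 63.5 in the control and 70.9 and 87.0 with TCQA, with all 7 among the brightest 10% on Control 1. The adipocyte and immune sums were also highest on Control 1. Those of 6 melanocyte markers were not, at 49.3 and 49.3 in the control and 49.7 and 47.2 with TCQA. These near-equal sums hide opposite patterns. Mitf was highest on Control 1 (log2 4.83 against 1.89 to 2.76), whereas Tyr, Dct, Tyrp1 and Pmel were lowest there, and Mlana was lowest on TCQA 2. The median log2 value of the 6 was 2.09 on Control 1 and 2.72 to 2.93 on the others. The sums of 4 endothelial markers were lowest on Control 1, at 24.2 and 30.3 in the control and 34.9 and 36.5 with TCQA. These markers were not of 1 pattern. Kdr (log2 2.93 on Control 1 against 4.14 to 4.66) and Pecam1 were lowest on Control 1, whereas Cdh5 (3.17 against 1.98 to 2.54) and Tek were highest there. Genes that every cell uses were far higher on Control 1. Gapdh had 11.02 and 6.65 in Control 1 and 2, and 6.32 and 6.37 in TCQA 1 and 2, and Actb had 9.02 and 2.58, and 2.94 and 2.69, which on the last 3 arrays is near the array's median. Over all probe sets Control 1 correlated with the other arrays at r of 0.41, while the others correlated with each other at 0.88 to 0.96. A difference without Control 1 therefore compares arrays on which Actb and most markers of skin were dim. Whether these differences between arrays lie in the tissue, in the RNA or in the arrays themselves was not tested. In bulk skin, fewer cells of a type and less RNA per cell cannot be told apart either. The part of all these differences in the results on the IGF genes was not tested. Differences are also given without Control 1 where it decides them.

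Igfbp5, a secreted binding protein that also attaches to the extracellular matrix, was bright on each array and brightest on the arrays other than Control 1. Its log2 values were 5.23 and 7.83 in Control 1 and 2, and 8.09 and 7.94 in TCQA 1 and 2. Control 1 was far below the rest, and both TCQA arrays lay just above Control 2. In rank among the 45037 probe sets, Igfbp5 was number 33 on Control 2, number 28 on TCQA 1, number 25 on TCQA 2 and number 3951 on Control 1. Probe sets differ in how well their probes bind, so these ranks describe brightness and not the amount of transcript relative to other genes.

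Igfbp5 averaged log2 6.53 ± 1.83 (SD, n = 2) over the vehicle arrays and 8.02 ± 0.10 (SD, n = 2) over the TCQA arrays, a log2 fold change of 1.48. The control arrays differed from each other by 2.59, which is more than the difference between the groups. Without Control 1 the log2 fold change of Igfbp5 was 0.19, made of 0.26 for TCQA 1 over Control 2 and 0.11 for TCQA 2 over Control 2, while the TCQA arrays differed from each other by 0.145, and after a further quantile normalization of all 4 arrays it was 2.25. The groups did not overlap, with TCQA above, as was the case for 17.9% of all probe sets.

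Control 1 was below the other 3 arrays for 7 of the 20 IGF probe sets (58.3% of all probe sets) and above them for 8 (28% of all). On Control 2, TCQA 1 and TCQA 2 alike, 28 probe sets ranked among the 50 brightest, and 9 of these name a single gene, Igfbp5 among them. The Control 1 values of the 28 ranged from 5.23 to 11.14 with a median of 6.39, and the lowest was that of Igfbp5. The 28 were chosen after the values had been seen and on the arrays other than Control 1, a choice that favours lower values on Control 1, so no count of them against that array is given.

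The genes whose pattern over the 4 arrays was most like that of Igfbp5 were Cryl1, Fbxo36, Rassf1, Fcgr2b and Smyd5. Likeness was the root mean square difference between the log2 values after each probe set was centred on its own mean, so brightness itself did not count. It was 0.13 for Cryl1, 0.18 for Fbxo36, and 0.25 for each of Rassf1, Fcgr2b and Smyd5, and 184 of the 17089 other genes lay within 0.5. Cryl1 had log2 values of 3.73 and 6.09 in Control 1 and 2, and 6.70 and 6.34 in TCQA 1 and 2. Control 1 was the low array, which the choice fixes in advance, since a gene this close to Igfbp5 must also be lowest there. Among the IGF genes themselves, the nearest was an Igf2 probe set (1415931_PM_at) at 0.51, and the farthest was that of Igfbp3 at 3.04.

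**Figure D1:**
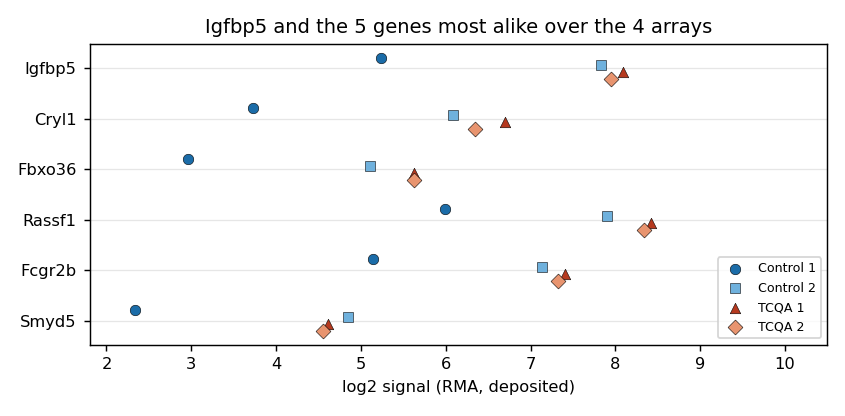
Log2 signal of Igfbp5 and of the 5 genes most alike over the 4 arrays (horizontal axis), 1 symbol per array with a small vertical offset. For Igfbp5 and for the other 5 genes Control 1 is the lowest array, at 5.23 for Igfbp5 against 7.83 to 8.09 on the other arrays. The 5 genes were chosen for this likeness, so their low value on Control 1 is no separate observation.

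Igfbp3, the main carrier of IGFs in blood and a product of dermal cells, had the opposite pattern to Igfbp5. Its probe set had log2 values of 5.66 and 1.2 in Control 1 and 2, and 1.33 and 1.53 in TCQA 1 and 2. It was bright on Control 1 alone, at a percentile of 93.4 on that array, and among the dimmest probe sets of the others, at percentiles of 1.45, 3.63 and 7.16. The log2 fold change was -2.0 (SE 1.52, limma adjusted p = 0.92), and the control arrays differed by 4.46. Without Control 1 it was 0.23, with both TCQA arrays above Control 2. Control 1 exceeded the other arrays by over 1 for 5 of the 20 IGF probe sets (15.9% of all probe sets) and fell below them by over 1 for 2, an Igf2 probe set and that of Igfbp5 (6.5% of all).

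Igfbp4, which binds IGFs until the protease PAPP-A cleaves it, was measured by 6 probe sets that did not give the same pattern. The brightest, 1437405_PM_a_at, had log2 values of 7.25 and 4.31 in Control 1 and 2, and 4.23 and 4.46 in TCQA 1 and 2. Another, 1423756_PM_s_at, had 5.44 and 2.17 in Control 1 and 2, and 1.88 and 1.8 in TCQA 1 and 2. Both were highest on Control 1 by about 3 log2 units, and only in the second did Control 2 lie above both TCQA arrays. Their log2 fold changes were -1.44 (SE 1.03, limma adjusted p = 0.92) and -1.97 (SE 1.14, limma adjusted p = 0.92). Without Control 1 these became 0.03 and -0.34, and after a further quantile normalization that of 1437405_PM_a_at was -0.34.

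The other 4 Igfbp4 probe sets did not share the high value on Control 1. Probe set 1423757_PM_x_at had log2 values of 4.47 and 4.37 in Control 1 and 2, and 4.34 and 4.47 in TCQA 1 and 2, a range of little more than 0.1 over all arrays. Probe set 1421992_PM_a_at was instead lowest on Control 1, at 2.93 against 3.39 to 3.64 on the others. The remaining pair, 1421991_PM_a_at and 1437406_PM_x_at, lay between 2.20 and 2.89 on all arrays. The log2 fold changes of these 4 probe sets ran from -0.29 to 0.22, with adjusted p from 0.93 to 1.00 for 3 of them in limma, and 0.92 for 1437406_PM_x_at. All 6 Igfbp4 probe sets have names that carry a letter (a, s or x) for probes that match more than 1 transcript, so which transcripts each one reports is uncertain.

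Igfbp2, a binding protein abundant in serum and a close neighbour of Igfbp5 on the chromosome, did not resemble it. Its probe set had log2 values of 2.89 and 2.44 in Control 1 and 2, and 2.44 and 2.31 in TCQA 1 and 2, near the middle of the distribution on the last 3 arrays (percentiles of 42.3 to 46.0). The log2 fold change was -0.29 (SE 0.35, limma adjusted p = 0.92) and -0.06 without Control 1. In the RefSeq gene table Igfbp2 and Igfbp5 are adjacent protein-coding genes, as are Igfbp1 and Igfbp3, and within each of these pairs the patterns differed. Igfbp1, the insulin-regulated binding protein of liver and not among the 10 genes, had log2 values of 3.02 and 2.75 in Control 1 and 2, and 3.03 and 2.70 in TCQA 1 and 2.

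Igfbp6, a binding protein that prefers IGF2, varied least among the binding proteins with 1 probe set. Its log2 values were 3.59 and 3.35 in Control 1 and 2, and 3.38 and 3.28 in TCQA 1 and 2. It held nearly the same place on all arrays, from percentile 76.6 to 77.7. The log2 fold change was -0.14 (SE 0.33, 95% interval -1.02 to 0.74, limma adjusted p = 0.95), and after a further quantile normalization it was 0.0423.

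**Figure D2:**
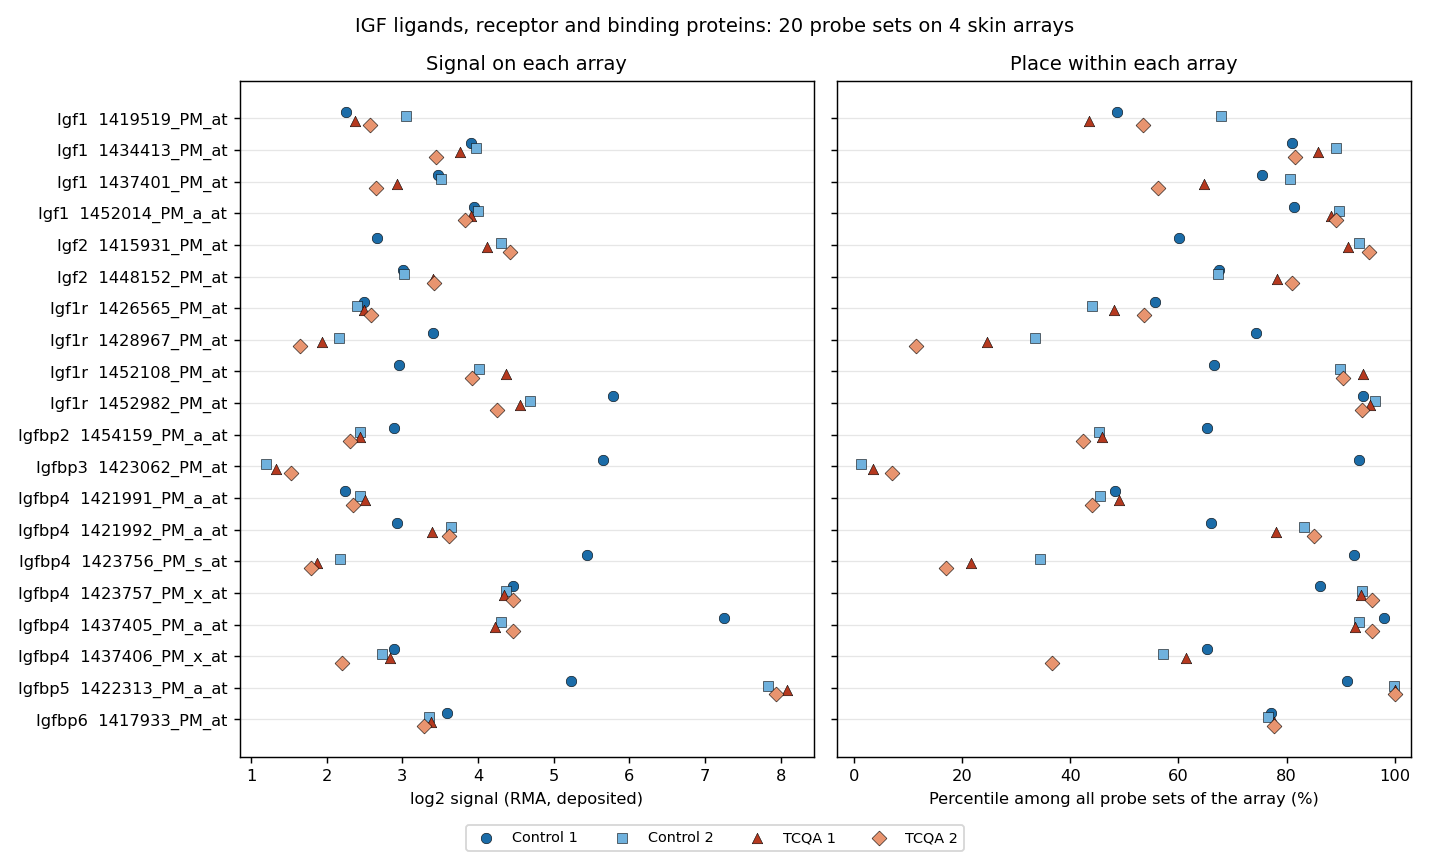
Left, log2 signal of each of the 20 IGF probe sets on each array. Right, the percentile of the same value among all 45037 probe sets of that array. Each symbol is 1 array, offset slightly up or down. Igfbp5 lies above the 99th percentile on the 3 arrays other than Control 1 and at 91.2 on Control 1, whereas Igfbp3 is at 93.4 on Control 1 and below 10 on the others.

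Igf1, the ligand that dermal cells supply to the follicle, had negative log2 fold changes at all 4 of its probe sets, although that of 1452014_PM_a_at was positive after a further quantile normalization. At 3 of them the control arrays lay within 0.0618 of each other. Probe set 1437401_PM_at had log2 values of 3.47 and 3.51 in Control 1 and 2, and 2.93 and 2.65 in TCQA 1 and 2. Both TCQA arrays were below both control arrays. Its log2 fold change was -0.70 (SE 0.33, 95% interval -1.59 to 0.18, limma adjusted p = 0.92), against a difference of 0.04 between the control arrays and 0.28 between the TCQA arrays. It was -0.73 without Control 1.

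Probe set 1434413_PM_at of Igf1 had log2 values of 3.91 and 3.97 in Control 1 and 2, and 3.76 and 3.44 in TCQA 1 and 2. The brightest, 1452014_PM_a_at, had 3.94 and 4.0 in Control 1 and 2, and 3.90 and 3.83 in TCQA 1 and 2. In both, TCQA was again below the control on each array, by a log2 fold change of -0.34 (SE 0.34, limma adjusted p = 0.92) and -0.11 (SE 0.32, limma adjusted p = 0.96). For 1434413_PM_at it was -0.18 without TCQA 2, and -0.11 once the arrays had been quantile-normalized again. The dimmest, 1419519_PM_at, had 2.26 and 3.04 in Control 1 and 2, and 2.37 and 2.58 in TCQA 1 and 2, so the groups overlapped. Its log2 fold change was -0.17 (SE 0.42, limma adjusted p = 0.95), and without Control 1 it was -0.57. Ranked within each array instead, both TCQA arrays were below both control arrays for 1437401_PM_at only, with percentiles of 75.4 and 80.7 in the control and 64.7 and 56.3 with TCQA, and after a further quantile normalization 1452014_PM_a_at had a log2 fold change of 0.21. No Igf1 probe set passed the test.

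Igf2, the ligand with high expression before birth, was measured by 2 probe sets. The first, 1448152_PM_at, had log2 values of 3.0 and 3.02 in Control 1 and 2, and 3.40 and 3.42 in TCQA 1 and 2. Replicates lay within 0.02 of each other in both groups, and both TCQA arrays were above both control arrays. The log2 fold change was 0.40 (SE 0.32, 95% interval -0.45 to 1.25, limma adjusted p = 0.92). It was 0.39 without Control 1. The standard error exceeds the spread of this probe set because limma draws each variance toward that of all probe sets.

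The other Igf2 probe set, 1415931_PM_at, did not separate the groups. It had log2 values of 2.66 and 4.31 in Control 1 and 2, and 4.12 and 4.42 in TCQA 1 and 2, so that Control 1 was low and Control 2 lay between the TCQA arrays. Its log2 fold change was 0.79 (SE 0.64, limma adjusted p = 0.92), and -0.04 without Control 1. The 2 probe sets of Igf2 shared the sign of the difference with all 4 arrays and not without Control 1.

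Igf1r, the receptor tyrosine kinase for both ligands, had 4 probe sets whose differences were of both signs. The brightest, 1452982_PM_at, had log2 values of 5.79 and 4.69 in Control 1 and 2, and 4.56 and 4.25 in TCQA 1 and 2. A dimmer one, 1428967_PM_at, had 3.40 and 2.16 in Control 1 and 2, and 1.94 and 1.65 in TCQA 1 and 2. For both, TCQA lay below the control with Control 1 highest, and the log2 fold changes were -0.83 (SE 0.50, limma adjusted p = 0.92) and -0.99 (SE 0.53, limma adjusted p = 0.92), or -0.28 and -0.37 without Control 1. For 1452982_PM_at the difference was -0.0799 after a further quantile normalization, and ranked within each array its groups overlapped, with percentiles of 94.0 and 96.3 in the control and 95.5 and 94.0 with TCQA.

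Another Igf1r probe set, 1452108_PM_at, was lowest on Control 1. It had log2 values of 2.96 and 4.02 in Control 1 and 2, and 4.37 and 3.92 in TCQA 1 and 2, with a log2 fold change of 0.66 (SE 0.50, limma adjusted p = 0.92) that was 0.13 without Control 1. The last, 1426565_PM_at, stayed between 2.40 and 2.58 on all arrays, with a log2 fold change of 0.09 (SE 0.32, limma adjusted p = 0.96). Its TCQA arrays were above both control arrays, TCQA 1 by less than 0.01 over Control 1, but after the arrays were centred on their medians the log2 fold change was 0.0043, and by percentile the groups overlapped.

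None of the 19 IGF probe sets that were tested passed an adjusted p of 0.05 in limma, where 0 of all 45037 did, and none had an unadjusted p under 0.05, where 141 of all did. For its arrays the study names a change of at least 2-fold, which 3 of the 19 reached, Igfbp3 and 2 probe sets of Igfbp4, beside 12.4% of all probe sets. Without Control 1 none did, beside 0.535% of all. With an unadjusted p of at most 0.05 as well, 0 of the 19 passed, beside 0.258% of all. Of all 20, 7 lay higher and 13 lower with TCQA in the mean, beside 61.1% and 38.9% of all probe sets, and 1 probe set of Igf1, 2 of Igfbp4 and that of Igfbp6 changed sign after a further quantile normalization. The median log2 fold change was -0.16 over the 20 and 0.12 over all probe sets, and without Control 1 these medians were -0.05 and -0.02. TCQA lay above the control without overlap for 3 of the 20 (17.9% of all probe sets) and below it for 6 (10.9% of all), 9 of 20 in either direction (28.8% of all). Ranked within each array, these counts were 4 (18.6% of all) and 3 (11.7% of all). With 1 probe set per gene, the brightest, 6 of the 8 genes were lower with TCQA in the mean (43.8% of all genes), although Igf1 and Igfbp6 were higher after quantile normalization. Their median difference was -0.21 beside 0.08 over 17097 genes. Without Control 1 these were -0.0279 and -0.0348. After quantile normalization of all 4 arrays the median of the 8 genes was -0.0188, beside 0.0593 over all probe sets. By percentile, TCQA lay below the control without overlap for 0 of the 8 genes, beside 2059 of all 17097 genes. It lay above the control without overlap for 2 of the 8, Igfbp5 among them, beside 3211 of all 17097. Without Control 2, which leaves Control 1 as the only control, 6 of the 19 passed an adjusted p of 0.05 in limma, beside 23.4% of all probe sets. A gene that passed no test is not shown to be unchanged, since the 95% intervals reach beyond 2-fold for many of them and 2 arrays against 2 cannot give an exact permutation p below 0.333.

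**Figure D3:**
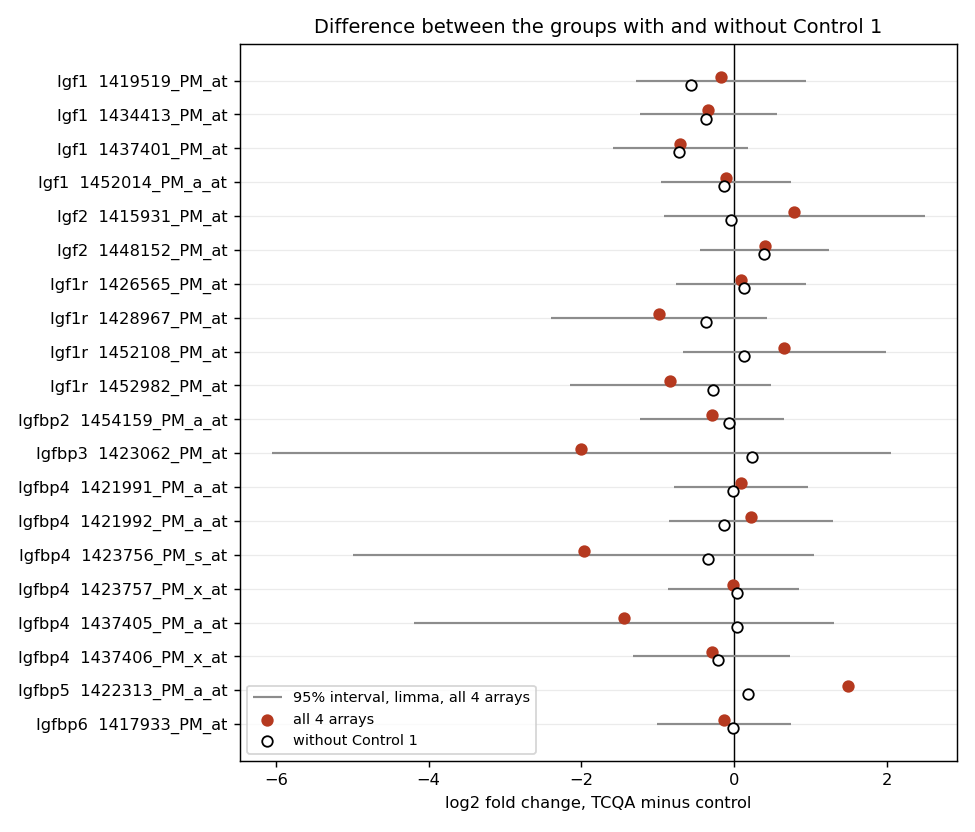
Log2 fold change (TCQA minus control) of each IGF probe set with all 4 arrays (filled) and without Control 1 (open). Lines are 95% intervals from limma over all 4 arrays, and Igfbp5 has none because it was not tested. Igfbp5 goes from 1.48 to 0.19 and Igfbp3 from -2.0 to 0.23 without Control 1, while Igf1 1437401_PM_at stays at -0.70 and -0.73.

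Of 38 further genes of the pathway, 33 were named in the annotation, and none passed an adjusted p of 0.05 in limma. Their log2 fold changes were positive for 15 and negative for 18, with a median of -0.08 beside 0.08 over all genes. At a 2-fold change with an unadjusted p of at most 0.05, 2 passed, beside 0.31% of all genes. One was Stc1, a stanniocalcin, a family of secreted proteins that inhibit the PAPP-A protease. Stc1 had log2 values of 2.32 and 2.87 in Control 1 and 2, and 3.61 and 3.81 in TCQA 1 and 2. Both TCQA arrays were above both control arrays, with a log2 fold change of 1.12 (SE 0.37, limma adjusted p = 0.92) that was 0.85 without Control 1. Its unadjusted p of 0.0343 rose above 0.05 in most alternatives on all 4 arrays, to 0.0908 with limma's trend and robust options. The log2 fold change of Stc1 was 1.22 without TCQA 1 and 1.02 without TCQA 2.

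The other was Pik3ca, the catalytic subunit of the PI3-kinase that acts below the receptor. Pik3ca had log2 values of 5.46 and 4.36 in Control 1 and 2, and 3.58 and 2.80 in TCQA 1 and 2. It was lower on both TCQA arrays than on either control, with a log2 fold change of -1.72 (SE 0.55, limma adjusted p = 0.92) and -1.17 without Control 1. Its unadjusted p of 0.0298 in limma stayed under 0.05 after quantile normalization (0.0246), after centring the arrays (0.0411) and without dim probe sets (0.0436). The same held with the trend and robust options (0.0439) and with a replicate block (0.0183). It was 0.124 in the unmoderated test and 0.0551 in limma with a crossed pairing of the arrays. The log2 fold change was -2.11 without TCQA 1 and -1.33 without TCQA 2. These runs leave 1 TCQA array, so no p-value is given for them, and the p-values above do not show that Pik3ca withstands leaving out an array. The TCQA arrays differed from each other by 0.78 and the control arrays by 1.09.

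The largest remaining differences were those of Ghr, the growth hormone receptor through which Igf1 is induced, and of Irs1, the adaptor that docks on the activated receptor. Ghr had log2 values of 7.36 and 2.38 in Control 1 and 2, and 2.18 and 3.02 in TCQA 1 and 2. Irs1 had 5.93 and 2.95 in Control 1 and 2, and 2.49 and 2.75 in TCQA 1 and 2. Both were high on Control 1 alone, and their log2 fold changes of -2.27 (SE 1.71, limma adjusted p = 0.92) and -1.82 (SE 1.05, limma adjusted p = 0.92) were 0.22 and -0.33 without it.

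By group, the 7 proteases of binding proteins and their inhibitors had 5 positive and 2 negative log2 fold changes, with a median of 0.66 that was 0.05 without Control 1. The 9 receptors and adaptors had 3 positive and 6 negative ones (median -0.28, or -0.35 without Control 1). The 7 downstream genes had 2 positive and 5 negative ones (median -0.88, or -0.15 without Control 1). TCQA was above the control without overlap for 6 of the 33 genes (16% of all genes) and below it for 8 (13.6% of all genes).

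**Figure D4:**
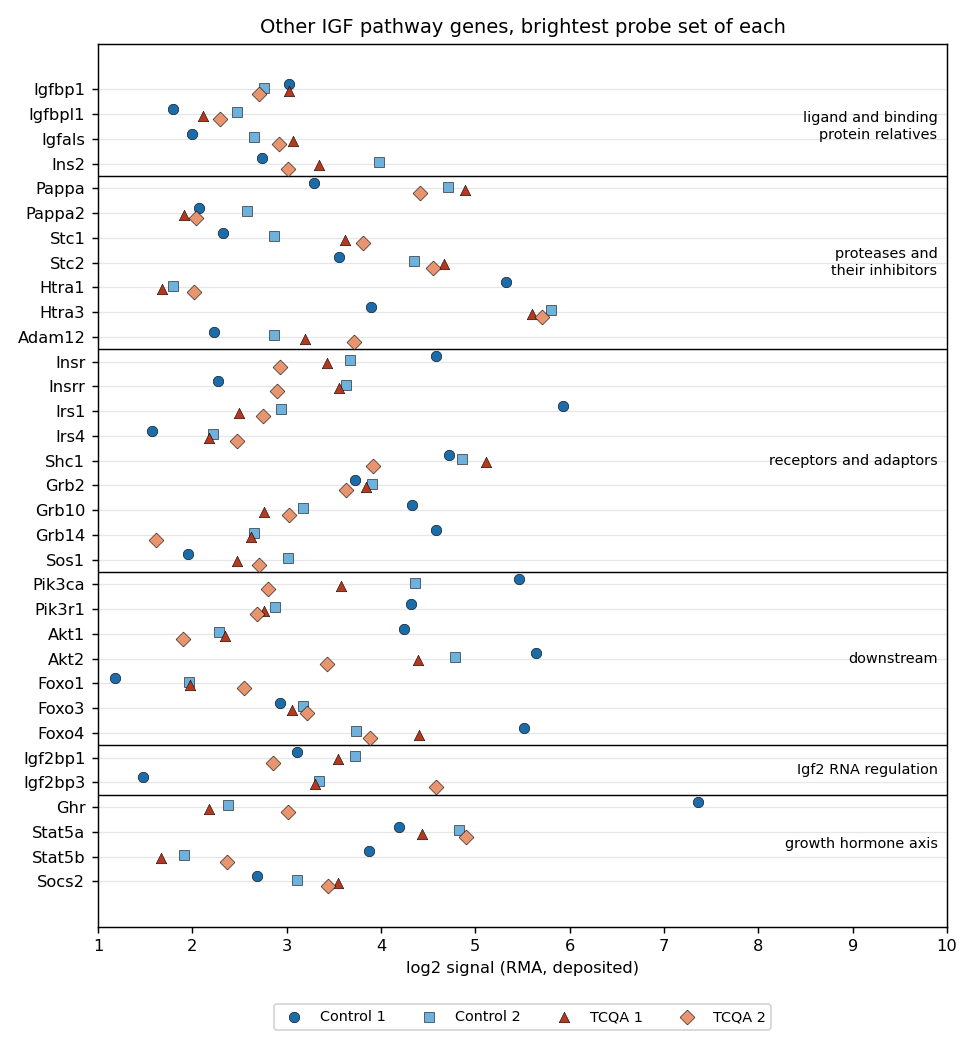
Log2 signal of the 33 other IGF pathway genes on each array, from the brightest probe set of each, grouped by role. Each symbol is 1 array with a small vertical offset. Stc1 is higher on both TCQA arrays (3.61 and 3.81) than on the controls (2.32 and 2.87), Pik3ca is lower (3.58 and 2.80 against 5.46 and 4.36), and Ghr is high on Control 1 alone (7.36).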

How the data were processed

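The authors made the log2 values with RMA from Affymetrix mouse array strips and deposited 1 value for each probe set on an array. Expression Console and Transcriptome Analysis Console appear in the submitters' processing notes, the latter as 4.0.1 in the methods. Whether all 4 arrays were normalized together is not given in the sources used here. Control features (104) were dropped. Of the 45037 others, 28898 name 1 gene in the platform annotation, 551 name several and 15588 are unnamed here. No RefSeq match changed a symbol. Groups were compared on all 45037 probe sets by limma's moderated test (lmFit, then eBayes; limma 3.58.1, R 4.3.3), two-sided with Benjamini-Hochberg adjusted p-values and without a filter or second normalization. The step was tested on simulated arrays with equal, independent noise, a setting that holds no array standing apart as Control 1 does. Where 1 probe set per gene was needed, the brightest in the mean over all arrays was taken. The members and lists were chosen with earlier results of these data known. Named genes are all members, the 5 genes most like Igfbp5, and pathway genes at 2-fold with an unadjusted p of at most 0.05, filled up to 4 by size of change. Arrays carry no read depth, and their number limits the precision. Alternatives were other scalings, a brightness filter, limma's trend and robust options, an unmoderated test, a replicate block, leaving out each array and other choices of probe set.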

Additional observations from a re-analysis of the deposited data

How the results depend on the processing

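Without Control 2, which leaves Control 1 as the only control, limma called 23.4% of all probe sets at an adjusted p of 0.05, and leaving out any other array gave 0. When each array was left out in turn, the counts at an adjusted p of 0.05 ran from 0 to 3307 higher and 0 to 7231 lower, and at 2-fold with an unadjusted p of at most 0.05 from 1 to 5532 higher and 0 to 7979 lower (61 and 55 with all arrays), with 0 to 8 of the 20 IGF probe sets. The highest counts came without Control 2, where Control 1 is the only control, so no conclusion is drawn from them. The 8 include Igfbp5, which was not tested and whose log2 fold change was 2.78 there. At those thresholds the counts were 182 higher and 100 lower after quantile normalization, 3 and 16 without dim probe sets, 12 and 14 with the unmoderated test, 37 higher with trend and robust options, and 0 IGF probe sets in each. With the replicate number as a block they were 54 higher and 227 lower. Same-numbered arrays deviated with r = -0.12, which can neither show nor exclude a pairing because Control 1 stands apart. The labels give a replicate number and no pairing. A crossed pairing chosen after seeing the data gave 16 higher and 53 lower. Over the arrays left out, log2 fold changes ran from 0.19 to 2.78 for Igfbp5, -4.23 to 0.23 for Igfbp3, -0.0375 to 1.61 for Igf2 1415931_PM_at and -0.57 to 0.22 for Igf1 1419519_PM_at. For Igfbp4 they ran from -2.91 to 0.0326 (1437405_PM_a_at), -0.14 to 0.58 (1421992_PM_a_at), -0.0156 to 0.19 (1421991_PM_a_at), -0.0754 to 0.0496 (1423757_PM_x_at) and -0.62 to 0.0268 (1437406_PM_x_at). Quantile normalization turned Igf1 1452014_PM_a_at to 0.21, Igfbp6 to 0.0423, and the Igfbp4 probe sets 1421991_PM_a_at and 1423757_PM_x_at to -0.0106 and 0.52. Centring the arrays turned 1421991_PM_a_at to -0.0016. The median of the 8 IGF genes was -0.0188 after quantile normalization and -0.388 to -0.0279 over the arrays left out. Over the IGF genes that remained, it was -0.12 without dim probe sets, a filter that dropped Igfbp2 and Igfbp3. It was -0.339 over those that remained without probe sets with a suffix. The median of the other pathway genes was 0.0118 after quantile normalization, 0.10 without probe sets with a suffix, and -0.19 to 0.0911 over the arrays left out. The causes were not tested. The probe sets of Igfbp2, Igfbp4 and Igfbp5 all carry a suffix, so that choice gave no value for them. No detection call was used, and values as dim as those of Igfbp3 outside Control 1 cannot be told from background here. The log2 fold changes of Igf1 1437401_PM_at (-0.84 to -0.56) and Igf2 1448152_PM_at (0.31 to 0.53) kept their sign in every alternative run. Neither passed an adjusted p of 0.05 in any run on all 4 arrays. The sign was also kept by other IGF probe sets, among them those of Igfbp2, Igfbp5 and Igf1r. Whether these Igf1 and Igf2 probe sets stood above background was not tested.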
